A study of Mus musculus with 103 samples.

Results

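CTCF is a zinc-finger protein that binds DNA at sites across the genome, holds cohesin loops in place and, at some promoters, is needed for transcription of the gene beside it. Adenoviruses that carry Cre recombinase are used to delete floxed genes in resting cells, but virus and Cre also act on cells that carry no floxed gene. The interferon system, which senses foreign nucleic acid, signals through IRF and STAT factors and switches on antiviral effector genes, is the best known of such responses. The comparison described here sets the RNA change of Ctcf(fl/fl) fibroblasts after Adeno-Cre against the change of wild-type fibroblasts after the same exposure, as a difference of differences, called the net change below. It rests on 8 of the 103 samples of the series, chosen by their labels: 2 untreated and 2 Adeno-Cre libraries of Ctcf(fl/fl) cells, and the same of wild-type cells.

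All 8 were polyadenylated RNA libraries from quiescent fibroblasts of C57BL/6 mouse embryos (E13.5). Ctcf(fl/fl) cells had both Ctcf alleles floxed, so Cre removes the gene, and wild-type cells had none. Treated cells of both kinds were exposed to Adeno-Cre for 4 h and rested for 10 d before RNA was taken. Each replicate was a separate clone by its label, with an untreated and a treated library of the same clone, so genotype and clone cannot be told apart in any comparison of untreated cells. For part of the results 3 further libraries were read, from cells floxed for both Ctcf and Wapl, the cohesin release factor: 2 untreated libraries of different clones and 1 Adeno-Cre library of 1 of these clones.

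Values were RPKM, reads scaled to gene length and to the reads of the library, and every change below is a difference of log2(RPKM + 1), a scale on which changes of low genes come out too small. The 8 libraries held 21.7 to 41.1 M reads in genes. All 14 fibroblast markers were above 0 in every library (Pdgfra, Thy1, Col1a1, Vim and others), with a summed level of 8521 to 10600 RPKM. Macrophage markers summed to 2851 and 1911 RPKM in the untreated and treated library of wild-type replicate 1, to 170 and 111 in replicate 2, and to 434 to 1122 in the Ctcf(fl/fl) libraries, and no macrophage marker passed the threshold for the net change. Markers of other cell types differed too. Epithelial markers summed to 17.5 to 125 RPKM in the wild-type and to 7.28 to 11.7 in the Ctcf(fl/fl) libraries. Chondrocyte and osteoblast markers summed to 714 to 1144 and to 189 to 427. Muscle markers summed to 78.5 to 198 RPKM in replicate 1 of both kinds of cells and to 330 to 678 in replicate 2. The treated library of wild-type replicate 1 stood apart from the other 7. It listed 18433 genes above 0 where the others listed 15782 to 16492. A set of 9262 genes was under 0.5 RPKM in every library outside the treated wild-type group. These genes summed to 505 RPKM in this library and to 269 in the other treated wild-type library. In the untreated wild-type and the Ctcf(fl/fl) libraries they summed to 134 to 212, where the choice of genes capped the sum. The main counts, the interferon lists and the histones are given with and without it.

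The Ctcf gene itself was read first. Ctcf was at 15.1 and 16.2 RPKM in untreated wild-type cells and at 13.9 and 15.3 after Adeno-Cre. In Ctcf(fl/fl) cells it was at 13.2 and 11.6 RPKM untreated and at 4.23 and 4.04 after Adeno-Cre, so the treated floxed libraries were below all others and the remaining groups lay close together. The net change was -1.28 (SE 0.19, n = 2 libraries per group, limma adjusted p = 0.000627), and it passed the threshold without any one of the 8 libraries but not in a fit on the 8 libraries alone (adjusted p = 0.0569). The fitted ratio of treated to untreated RPKM + 1 in Ctcf(fl/fl) cells was 0.384. In bulk RNA, fewer cells with the message and less message per cell cannot be told apart.

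Of 12604 genes tested, 184 (1.46%) passed an adjusted p of 0.05 for the net change, 93 (0.738%) higher and 91 (0.722%) lower. With the clone as a block in the model, which pairs each treated library with the untreated library of its clone, 876 genes (6.95%) passed, 431 (3.42%) higher and 445 (3.53%) lower, and all 184 were among them. Without the treated library of wild-type replicate 1, 115 passed, of which 106 were among the 184. The counts without each of the other libraries ran from 106 (untreated wild-type replicate 2) to 203 (treated wild-type replicate 2), with 109 without treated Ctcf(fl/fl) replicate 1 and 116 without untreated wild-type replicate 1. A fit on the 8 libraries alone, with less information on the spread, passed 22 genes, of which 20 were among the 184. For each of the 184 genes the change in both Ctcf(fl/fl) clones lay beyond that in both wild-type clones, which the selection on these same changes favours and which is no support for them.

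The 184 genes reached their net change along different routes. The larger groups were 88 genes that rose in Ctcf(fl/fl) cells, 71 that fell in Ctcf(fl/fl) cells, and 17 that were lower net and rose in wild-type cells. The groups rest on which change passed, and both changes enter the net change. The median changes of the 17 were 1.78 in wild-type and -0.004 in Ctcf(fl/fl) cells. Ifit1 and H2-T23 among them were at -0.93 and -0.96 in Ctcf(fl/fl) cells, which did not pass. Among the 88, Slc25a33, a mitochondrial nucleotide carrier, rose in both kinds of cells, by 1.49 in Ctcf(fl/fl) and by 0.64 in wild-type cells. Trim62, Tacc1 and Fat1 were higher net and fell in wild-type cells, by 0.65, 0.81 and 0.78. Their median change in Ctcf(fl/fl) cells was 0.43. The other 5 genes passed for neither kind of cell alone. Each route shares libraries with the net change, so the split describes it and adds no test.

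**Figure D1:**
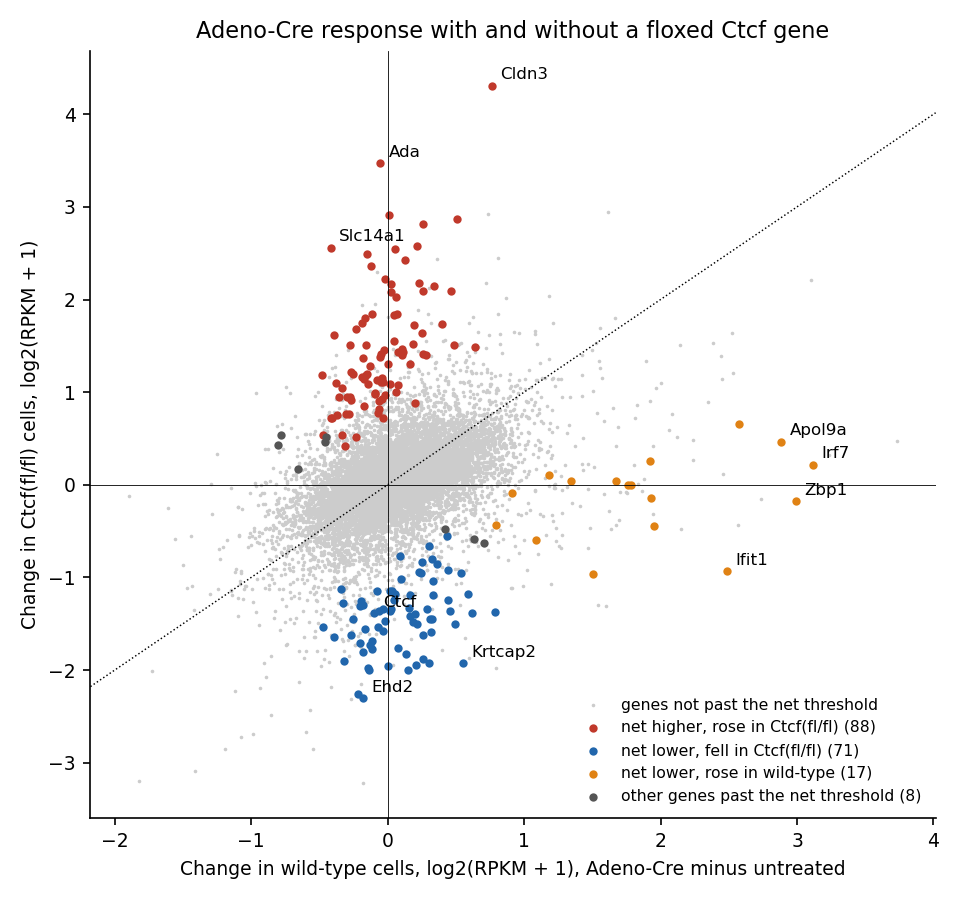
Each point is 1 of 12604 genes, with its mean log2(RPKM + 1) change after Adeno-Cre in wild-type cells on the horizontal axis and in Ctcf(fl/fl) cells on the vertical axis; the dotted line marks equal change. Red genes (88) rose in Ctcf(fl/fl) cells, blue genes (71) fell in them, and orange genes (17) rose in wild-type cells and lie to the right of the line near 0 on the vertical axis.

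The genes that fell with Ctcf are described first, because a good part of them carried the sequence that CTCF recognises at their start. Promoter windows of 300 bases, 250 before to 50 after the annotated start, came from RefSeq (build GRCm38.p6) and existed for 9926 of the tested genes, with more than 1 window for some. They were searched on both strands for the 12-base core of the CTCF consensus, with 3 free bases and a choice of 2 bases at each of 2 others. Of all 32851 windows 3.36% held a match, and of the tested genes 5.83%. Of the 56 genes with a window that fell in Ctcf(fl/fl) cells and were lower net, 15 (26.8%) held it. Of the 65 that rose in Ctcf(fl/fl) cells and were higher net, 2 did (Lsm11 and Coro2b). The genes below are the 5 lowest by net change among the 15, with the match in capitals, 30 bases each in the direction of the gene's transcription.
Krtcap2 (chr3:89246358-89246387, plus strand): tcctccttgCCACAAGAGGGCgctgcaccc
Adprhl2 (chr4:126321739-126321768, minus strand): gactccgggCCACAAGGGGGCgctgtgggg
Ehd2 (chr7:15967552-15967581, minus strand): tcacagtgcCCGCCAGGGGGCgcccgaggc
C1ra (chr6:124512553-124512582, plus strand): ccaaatggaCCACCAGATGGCaccagcaag
Gaa (chr11:119267927-119267956, plus strand): cgccctcagCCACTAGGGGGCgcagcgata
These matches began 71, 56, 37, 59 and 27 bases before the annotated start, in that order.

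All 15 matches lay on the strand of the gene. Among all tested genes with a window, 353 (3.56%) held the pattern on the gene's strand and 229 (2.31%) on the opposite strand. Among the 180 genes with a window that fell in Ctcf(fl/fl) cells without passing for the net change, 19 held it on the gene's strand and 6 on the opposite strand. Among the 502 that rose in Ctcf(fl/fl) cells, 11 held it on each. The other 10 genes with a match were Slc35b2, Hsd3b7, Bmyc, Flt3l, Slc25a38, Rabggta, B3galtl, Wdr41, Inpp5e and Rint1. A match is a string of letters, and binding of CTCF at these places was not analysed here.

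**Figure D2:**
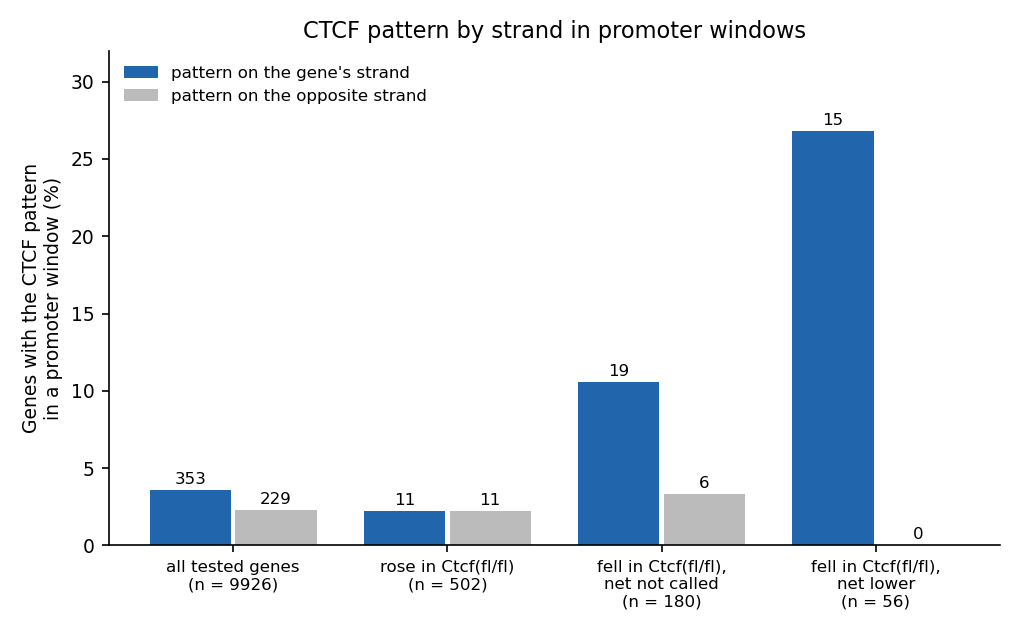
Bars give the percentage of genes with a CTCF pattern in a promoter window, by strand, for all tested genes and for genes that rose or fell in Ctcf(fl/fl) cells; the numbers above the bars are genes. The pattern on the gene's strand stood at 26.8% (15 of 56) in genes that fell and were lower net, with 0 on the opposite strand, against 3.56% and 2.31% in all tested genes.

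Krtcap2, a subunit of the complex that attaches sugars to new proteins, was at 233 and 231 RPKM in untreated wild-type cells and at 414 and 281 after Adeno-Cre. In Ctcf(fl/fl) cells it was at 200 and 233 RPKM untreated and at 46.2 and 68.2 after Adeno-Cre. The treated floxed libraries were far below the other 6, and the net change was -2.47 (SE 0.39, adjusted p = 0.00164). Its wild-type change of 0.55 had an adjusted p of 0.299, or of 0.0131 with the clone block.

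Adprhl2, the hydrolase that takes ADP-ribose off serines, was at 24.1 and 21.2 RPKM in untreated and at 30.8 and 25.7 in treated wild-type cells, and at 17.5 and 21.4 RPKM in untreated and 4.09 and 4.69 in treated Ctcf(fl/fl) cells. Treated floxed libraries were again lowest, with no overlap, and the net change was -2.22 (SE 0.23, adjusted p = 2.41e-05). Gaa, the lysosomal enzyme that breaks down glycogen, was at 215 to 310 RPKM in the other 6 libraries and at 69.5 and 71.6 in treated Ctcf(fl/fl) cells. Its net change was -1.83 (SE 0.24, adjusted p = 0.000273).

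Ehd2, an ATPase at the necks of caveolae, was at 106 to 151 RPKM in the other 6 libraries and at 21.8 and 38.3 in treated Ctcf(fl/fl) cells. The net change was -2.12 (SE 0.42, adjusted p = 0.0111), and it was lost without treated Ctcf(fl/fl) replicate 1 (adjusted p = 0.0896), without treated wild-type replicate 2 (0.0533) or without untreated wild-type replicate 1 (0.0596). It was the only one of 13 caveolar genes past the threshold.

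C1ra, the complement protease C1r, was at 16.9 to 30.7 RPKM in the other 6 libraries and at 3.93 and 4.01 in treated Ctcf(fl/fl) cells, a net change of -2.04 (SE 0.38, adjusted p = 0.00679). C1rl, its relative and its neighbour in the annotation, was lower by 1.19 net (adjusted p = 0.0342), as was Clu, the chaperone clusterin, by 1.58 (adjusted p = 0.0303). Clu was at 51.4 and 44.4 RPKM in untreated Ctcf(fl/fl) and at 92.7 and 99 in untreated wild-type cells, a difference that did not pass (adjusted p = 0.157), and it fell to 10.6 and 13.6. C1rl passed in none of the fits that left out a library, and Clu in 1 of 8. These were 3 of 21 complement genes (0.722% of all genes were lower), whose median net change was -0.10 against -0.01 over all genes.

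Other genes that fell had various roles. Mrps2, a protein of the small mitochondrial ribosome, was at 14.6 to 19.7 RPKM elsewhere and at 2.56 and 4.41 in treated Ctcf(fl/fl) cells, a net change of -2.14 (SE 0.23, adjusted p = 2.51e-05). Dhrs4, a short-chain dehydrogenase, was at 16 to 27.2 RPKM elsewhere and at 3.23 and 5.21 there, a net change of -2.15 (SE 0.31, adjusted p = 0.000642). Ndufaf3, an assembly factor of respiratory complex I, fell from 19.2 and 19.6 to 4.49 and 5.63 RPKM, a net change of -1.83 (adjusted p = 0.00127). It was the only one of 90 respiratory chain genes past the threshold, and the median of that list was -0.16. Adra1b, an adrenergic receptor, was at 12.8 and 5.49 RPKM in the untreated Ctcf(fl/fl) clones, which differed, and at 1.65 and 1.13 after Adeno-Cre, against 3.86 to 4.51 in the wild-type libraries. Its net change of -2.15 (adjusted p = 0.0089) was lost without untreated Ctcf(fl/fl) replicate 1 (adjusted p = 0.0543). Them6 fell net by 2.01 (adjusted p = 0.00707) and Sgce, an imprinted sarcoglycan gene and 1 of 29 imprinted genes tested, by 1.46 (adjusted p = 0.0128, passed in 4 of 8 fits that left out a library).

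The clustered protocadherins, cell adhesion genes whose promoter choice is known to depend on CTCF, fell broadly in Ctcf(fl/fl) cells. Of 33 tested, 26 fell in Ctcf(fl/fl) cells (2.63% of all genes did) and 0 in wild-type cells by limma (0.54% of all genes fell there), where 4 reached an unadjusted p of 0.05 and 2 passed with the clone block (7.24% of all genes fell with it). The median changes were -0.88 and -0.32, so wild-type cells moved in the same direction by less. Fewer of the 33 passed in Ctcf(fl/fl) cells without any 1 Ctcf(fl/fl) library, with medians of -0.93 to -0.83. Levels were low. Only 2 of the 33 had a mean of at least 5 RPKM, and in a fit at that mean 0 of these fell (median -0.15). For the net change 2 of the 33 were lower (0.722% of all genes), or 8 with the clone block (3.53%), with a median of -0.56. Pcdhb22 was at 4.26 to 6.03 RPKM in the other 6 libraries and at 0.961 and 1.04 in treated Ctcf(fl/fl) cells, a net change of -1.67 (SE 0.33, adjusted p = 0.0115), which passed in 6 of 8 fits that left out a library. Pcdhga2 was at 2.19 to 4.39 and at 0.508 and 0.771, a net change of -1.25 (adjusted p = 0.0351), and it passed in none of the fits that left out a library. Genes of the gamma cluster share their last exons, so reads in those cannot be assigned to 1 gene.

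**Figure D3:**
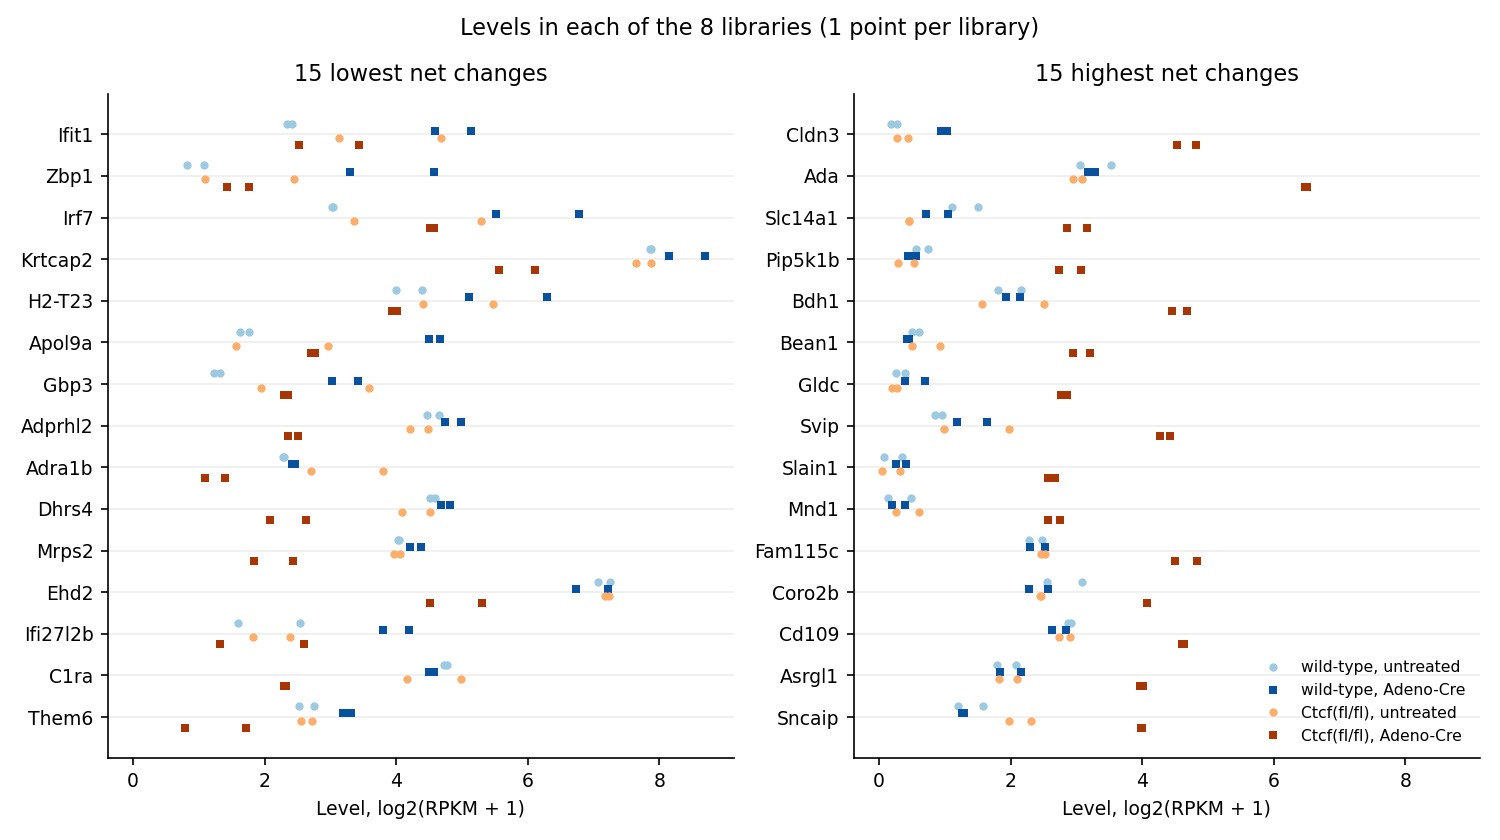
Each point is the level of a gene in 1 of the 8 libraries, as log2(RPKM + 1), for the 15 lowest (left) and 15 highest (right) net changes; circles are untreated and squares Adeno-Cre, blue is wild-type and orange to brown Ctcf(fl/fl). For all 15 genes on the right the treated Ctcf(fl/fl) libraries stand above the other 6; on the left, Ifit1, Zbp1, Irf7, Apol9a and Gbp3 are highest or among the highest in treated wild-type cells.

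Among the 15 highest net changes, starting levels ran from near 0 to several RPKM. Cldn3, a tight junction protein of epithelia, was at 0.139 to 0.359 RPKM in the untreated libraries, at 0.929 and 1.04 in treated wild-type cells and at 22 and 27.1 in treated Ctcf(fl/fl) cells. The treated floxed libraries were far above all others, and the net change was 3.55 (SE 0.32, adjusted p = 4.36e-06). Among 20 tested epithelial junction genes it was the only one that passed. Cldn4, which lies beside it, was at 1.42 and 0.66 RPKM in treated Ctcf(fl/fl) cells and at 0.0242 to 0.446 elsewhere; its net change of 0.86 did not pass (adjusted p = 0.222, or 0.0395 with the clone block).

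Ada, adenosine deaminase, was at 6.68 to 10.5 RPKM in the other 6 libraries and at 87.8 and 89.4 in treated Ctcf(fl/fl) cells. The net change was 3.52 (SE 0.59, adjusted p = 0.00261). Slc14a1, a urea transporter, was at 0.364 to 1.83 RPKM elsewhere and at 7.92 and 6.27 there, with a net change of 2.98 (SE 0.21, adjusted p = 3.07e-07). It began lower in untreated Ctcf(fl/fl) than in untreated wild-type cells (-0.85, adjusted p = 0.0203).

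Several others were near 0 before and at a few RPKM after. Pip5k1b, a kinase that makes the lipid PIP2, went from 0.223 and 0.451 to 7.41 and 5.64 RPKM in Ctcf(fl/fl) cells and stayed at 0.358 to 0.677 in wild-type cells (net 2.64, adjusted p = 4.36e-06). Gldc, of the glycine cleavage system, went from 0.15 and 0.206 to 6.27 and 5.79 RPKM (net 2.36, adjusted p = 8.18e-07). Mnd1, a meiotic recombination factor, went from 0.197 and 0.523 to 5.72 and 4.94 RPKM (net 2.25, adjusted p = 0.000424). Bean1, a binding partner of the ubiquitin ligase Nedd4, went from 0.892 and 0.415 to 8.2 and 6.7 RPKM (net 2.48, adjusted p = 0.000162). In these 4 genes the wild-type libraries ran from 0.0981 to 0.677 RPKM, and the treated floxed libraries did not overlap any other.

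Genes with a higher starting level also rose. Bdh1, a mitochondrial enzyme of ketone body metabolism, went from 1.95 and 4.67 to 21 and 24.7 RPKM (net 2.48, adjusted p = 0.00026), and Svip, a small partner of the p97 ATPase, from 0.972 and 2.95 to 18.2 and 20.5 (net 2.36, adjusted p = 0.00192). Asrgl1, an asparaginase, rose net by 1.96, Coro2b, an actin-binding coronin, by 2.01, and Sncaip, which binds synuclein, by 1.96, and each passed without any one library. Tnfaip6, a hyaluronan-binding protein made in inflammation, went from 2.67 and 1.99 to 11.6 and 10.3 RPKM (net 1.78, adjusted p = 0.0378); 1 of 16 acute inflammatory genes, it passed in none of the fits that left out a library.

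Of the 184 genes, 16 had a direct neighbour among tested genes that passed in the same direction, in 8 pairs, and in 1 pair neighbours passed in opposite directions. Slain1, which binds growing microtubule ends, was near 0 (0.0356 to 0.33 RPKM) in the other 6 libraries and at 5.38 and 4.9 in treated Ctcf(fl/fl) cells (net 2.31, adjusted p = 2.51e-05). Its neighbour on chromosome 14, Ednrb, an endothelin receptor, fell from 4.59 and 7.41 to 1.11 and 2.01 RPKM (net -1.77, adjusted p = 0.0249). Pairs that rose together included Cd109, a co-receptor that dampens TGF-beta signalling, with Slc17a5, a lysosomal transporter of sialic acid (net 1.96 and 1.18, adjusted p = 0.0454 and 0.0375), and Dact2 with Smoc2 (1.48 and 1.38, adjusted p = 0.00152 and 0.0188). Fam115c and Fam115a (2.14 and 1.03), and on the falling side Apol9a and Apol9b, are similar in sequence, so reads may have been split between the members of each pair. Cd109 and Fam115c passed in none of the fits that left out a library.

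The second group with a lower net change was that with a rise called in wild-type cells. Of 17 genes that rose there and not in Ctcf(fl/fl) cells, those named were mostly interferon-stimulated. Ifit1, an effector that binds foreign RNA, went from 4.04 and 4.35 to 34.3 and 23.1 RPKM in wild-type cells. In Ctcf(fl/fl) replicate 1 it fell from 24.8 to 4.74, and in replicate 2 it went from 7.79 to 9.82. The untreated Ctcf(fl/fl) clones therefore differed before any virus, and the clones moved in different directions. The net change was -3.42 (SE 0.74, adjusted p = 0.0202).

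Irf7, the factor that amplifies interferon production, went from 7.16 and 7.19 to 109 and 44.6 RPKM in wild-type cells, against 38.2 to 22.8 and 9.21 to 21.7 in the Ctcf(fl/fl) clones. The net change was -2.90 (SE 0.68, adjusted p = 0.0356). Zbp1, a sensor of Z-form nucleic acid, went from 1.1 and 0.77 to 22.9 and 8.83 RPKM in wild-type cells, against 4.42 to 1.68 and 1.14 to 2.39, a net change of -3.17 (SE 0.59, adjusted p = 0.00681). Apol9a went from 2.09 and 2.41 to 24.3 and 21.7 RPKM in wild-type cells, against 6.79 to 5.5 and 1.96 to 5.77, a net change of -2.42 (SE 0.41, adjusted p = 0.00307), which passed without any one library. In all 4 genes the treated wild-type libraries were above both treated Ctcf(fl/fl) libraries.

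As lists, 12 of 34 interferon effectors rose in wild-type cells (2.7% of all genes did), 6 of 16 sensors, 4 of 17 signalling genes and 6 of 18 antigen presentation genes. The medians of these 4 lists in wild-type cells were 1.25, 0.96, 0.15 and 0.63. Without the treated library of wild-type replicate 1 they were 0.93, 0.71, 0.03 and 0.32. They were 1.43, 1.01, 0.22 and 0.83 without untreated wild-type replicate 1. Without untreated wild-type replicate 2 they were 1.13, 0.88, 0.07 and 0.43. Fewer members of each list passed in these fits, as did fewer of all genes. On the 8 libraries alone the counts were 0 in all 4 lists by limma, where 6 of all genes rose. With the length trend removed the counts were 9, 5, 2 and 2, where 89 of all genes rose. In Ctcf(fl/fl) cells 0 effectors, 1 sensor (5.04% of all genes rose), 0 signalling and 0 antigen presentation genes rose by limma. With an unadjusted p under 0.05 it was 2, 2, 0 and 1. With the clone block 31, 11, 5 and 10 rose in wild-type cells (15.8% of all genes did). In Ctcf(fl/fl) cells the clone block gave 2, 2, 1 and 0 (15.7% of all genes). For the net change 3 effectors (Ifit1, Gbp3, Ifi44), 1 sensor (Zbp1), 2 signalling genes (Irf7, Irf9) and 2 antigen presentation genes (H2-T23, Tap2) were lower and 0 higher, against 0.722% of all genes lower. With the clone block 19, 4, 5 and 7 were lower, against 3.53% of all genes. The median net changes of the 4 lists were -1.39, -0.91, -0.44 and -0.91. Gbp3, an antiviral GTPase, was lower net by 2.39, H2-T23, a non-classical MHC molecule, by 2.46, Irf9, which binds the interferon response element with STATs, by 1.68, Ifi44 by 1.76, and Tap2, the peptide transporter, by 1.22. Tap2 differed from the others in that its fall in Ctcf(fl/fl) cells passed the threshold (-0.85, adjusted p = 0.00414). The changes of H2-T23, Irf9, Gbp3 and Ifi44 there were -0.96, -0.59, -0.44 and -0.003. None of these passed by limma (adjusted p = 0.128, 0.196, 0.522 and 0.998).

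These interferon results rested on few libraries. Summed over the effectors, the level went from 1596 to 5079 and from 1384 to 3095 RPKM in the wild-type clones, from 3060 to 2184 in Ctcf(fl/fl) replicate 1 and from 1576 to 2435 in replicate 2. In Ctcf(fl/fl) replicate 1, 2 of 34 effectors were above their untreated level, and in replicate 2, 29 were. In wild-type replicates 1 and 2 it was 33 and 34. The median change was 1.52 and 1.07 in the wild-type clones and -0.73 and 0.41 in the Ctcf(fl/fl) clones. Without the treated library of wild-type replicate 1 the net count of effectors went from 3 to 0 and their median to -1.11. Without the untreated library of Ctcf(fl/fl) replicate 1, the count was 1 and the median -0.98. It was 8 without the untreated library of Ctcf(fl/fl) replicate 2, 7 without the treated library of wild-type replicate 2, and 1 without treated Ctcf(fl/fl) replicate 1 or either untreated wild-type library. Ifit1 had an adjusted p of 0.107 without treated wild-type replicate 1 and of 0.117 without untreated Ctcf(fl/fl) replicate 1, Irf7 of 0.225 and 0.162, and H2-T23 of 0.109 and 0.1. Of the 8 fits that left out 1 library, Ifit1 passed in 3, Irf7 in 2, H2-T23 in 4, Irf9 in 4, Ifi44 in 3, Tap2 in 5, Gbp3 in 7 (adjusted p = 0.0588 without treated wild-type replicate 1) and Zbp1 in 8. Of the 17 genes, 6 passed without the treated library of wild-type replicate 1, as did 40 of the 71 that fell and 59 of the 88 that rose in Ctcf(fl/fl) cells. On the 8 libraries alone 0 of the 17 passed, with 4 of the 71 and 16 of the 88. The part of clone and of the macrophage marker level given above in these values was not tested.

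The interferon-stimulated response element was searched in the same windows as 2 copies of GAAA with 2 free bases between them, on both strands, where 3.44% of all windows and 3.6% of tested genes held it. Of 13 genes with a window among the 17, 5 did. The pattern is shown in capitals for 3 of them, where it appears as its reverse complement.
Ifit1 (chr19:34640775-34640804, plus strand): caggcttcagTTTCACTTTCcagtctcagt
H2-T23 (chr17:36032806-36032835, minus strand): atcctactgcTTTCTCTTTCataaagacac
Gbp3 (chr3:142559989-142560018, plus strand): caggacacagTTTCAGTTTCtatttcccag
The others were Apol9a and Apol9b. Of the 56 genes with a window that fell in Ctcf(fl/fl) cells and were lower net, 2 held the pattern, Flt3l and Leprel2.

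**Figure D4:**
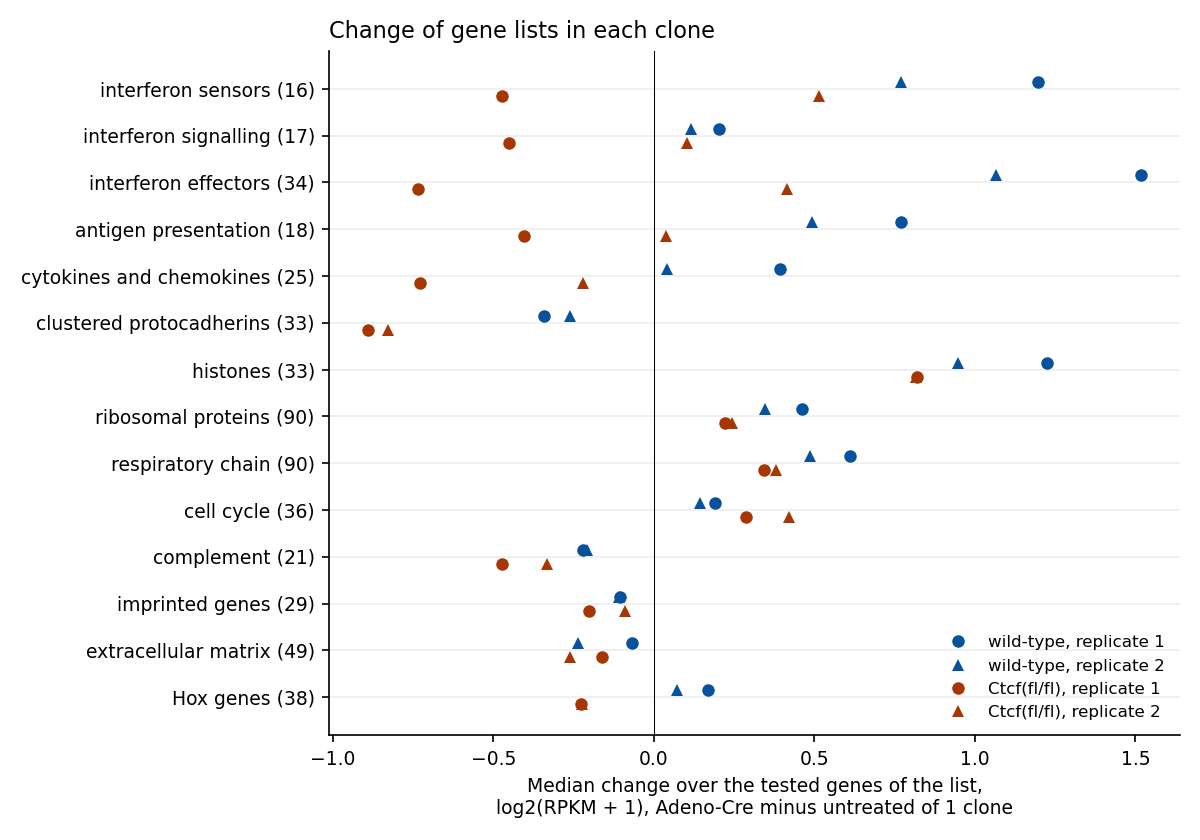
Each symbol is the median change of a gene list in 1 clone after Adeno-Cre, in log2(RPKM + 1), with the number of tested genes in brackets; blue is wild-type, brown Ctcf(fl/fl), circles replicate 1 and triangles replicate 2. The interferon effectors stand at 1.52 and 1.07 in wild-type clones and at -0.73 and 0.41 in Ctcf(fl/fl) clones, the protocadherins are lower in both Ctcf(fl/fl) clones, and the histones are above 0 in all 4 clones.

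Part of the response was called in both kinds of cells. Adeno-Cre was followed by 966 changed genes in Ctcf(fl/fl) cells (7.66%, 635 higher and 331 lower) and by 408 in wild-type cells (3.24%, 340 higher and 68 lower), or by 3155 (25%, of which 1178 lower, 9.35%) and 2899 (23%) with the clone block. The groups share no library. Of these, 148 passed in both, which is 15.3% of the Ctcf(fl/fl) list and 36.3% of the wild-type list, and all 148 moved in the same direction. Across genes, which are not independent, the change correlated at 0.79 between the Ctcf(fl/fl) clones, at 0.73 between the wild-type clones and at 0.31 to 0.45 between a Ctcf(fl/fl) and a wild-type clone. Of the 966 genes, 159 (16.5%) passed for the net change. The wild-type list depended on single libraries, with 45 genes without the treated library of replicate 1 and 63 and 65 without the untreated libraries of replicates 1 and 2. The Ctcf(fl/fl) list held 380, 498 and 626 genes without untreated replicate 1, treated replicate 2 and treated replicate 1. With a length trend removed, 55.7% of the Ctcf(fl/fl) calls were higher, against 65.7% as reported. After median-of-ratios rescaling 71.0% of the wild-type calls were higher, against 83.3% as reported.

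Histone genes were higher after Adeno-Cre in both kinds of cells. Of 33 tested, 24 rose in wild-type cells (2.7% of all genes did) and 17 in Ctcf(fl/fl) cells (5.04%), with median changes of 1.12 and 0.87, and 0 fell in either by limma, also at an unadjusted p of 0.05. The wild-type median was 0.90 without the treated library of replicate 1 and 1.03 without either untreated wild-type library. Fewer histones passed in these fits, as did fewer of all genes. On the 8 libraries alone 2 histones rose in wild-type cells, where 6 of all genes did. In Ctcf(fl/fl) cells 10 rose in that fit, where 363 of all genes did. The median length of the most abundant genes was 1.83 and 1.89 kb in the untreated and 1.58 and 1.69 kb in the treated wild-type libraries. With the length trend removed 5 histones rose in wild-type cells (89 of all genes did) and 12 in Ctcf(fl/fl) cells (543 did). The medians were then 0.64 and 0.66. The part of gene length in these values was not tested further. The net median was -0.18 and 1 gene passed, Hist1h4j, which was at 4.02 and 3.03 RPKM in treated wild-type cells and at 0.157 to 0.583 in the other 6 libraries (net -1.63, adjusted p = 0.024, or 0.131 without the treated library of wild-type replicate 1). Fmod, a collagen-binding proteoglycan, fell in both, by 3.20 in Ctcf(fl/fl) and by 1.82 in wild-type cells, and its net change of -1.38 did not pass (adjusted p = 0.22). Tubb3, a neuronal tubulin, rose in both, by 2.94 and 1.62, with a net change of 1.32 (adjusted p = 0.265). For Fmod and Tubb3 the subtraction therefore removed the call and lowered the estimate.

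Other lists had 0 genes past the net threshold by limma, where an unadjusted p under 0.05 was reached by 1139 of all genes. This held for Hox, extracellular matrix, proteoglycan, matrix protease, p53 target, cell cycle, ribosomal protein, immediate early, cytokine, growth factor, cholesterol synthesis and stress response lists, with medians from -0.80 (cytokines) to 0.13 (cell cycle), and for the lists of markers of fibroblasts and of 7 other cell types (medians -0.63 to 0.18). At an unadjusted p under 0.05 these lists had at most 6 members in 1 direction. These were 6 of 25 cytokines and 6 of 90 ribosomal proteins, all lower, against 1139 of 12604 genes in either direction. The cytokine list thus held the larger share, and 0 cytokines were higher at that p. The ribosomal protein list includes Rps6k kinases. With the clone block, 4 of 25 cytokines, 4 of 40 growth factor genes, 3 of 27 immediate early genes and 3 of 28 matrix proteases were lower (3.53% of all genes were), and 3 of 49 extracellular matrix genes were higher (3.42%). Of 18 cohesin and CTCF genes, Ctcf was the only one that passed. In the lists with 0 genes past the net threshold, the members closest to it were Dgat2, Mmp14 and Ccl11. Dgat2, which makes triglycerides, had a net change of 1.82 (adjusted p = 0.0592, or 0.0368 with the clone block). Mmp14, a membrane collagenase, was at -0.67 (adjusted p = 0.135, or 0.0378), and Ccl11, the eotaxin chemokine, at -2.63 (adjusted p = 0.151, or 0.0216). Ccl11 was at 9.31 and 6.86 RPKM in treated wild-type cells and at 0.516 to 1.68 in the other 6 libraries.

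Before Adeno-Cre, 31 genes (0.246%) differed between Ctcf(fl/fl) and wild-type cells, 3 higher and 28 lower, or 4 and 12 after rescaling, which moved the median of all genes from -0.12 to -0.01. Among them were 5 of 36 cell cycle genes, all lower in Ctcf(fl/fl) cells, Plk1, Ccnb2, Cdc20, Kif20a and Bub1b, and the median of that list was -0.69. Without any 1 of the 4 untreated libraries the count of all genes was 7 to 12. After Adeno-Cre 1679 genes (13.3%) differed, 579 higher and 1100 (8.73%) lower in Ctcf(fl/fl) cells, a treated difference whose split turned to 849 higher and 715 lower after rescaling. Without the treated libraries of Ctcf(fl/fl) or wild-type replicate 1 the count was 548 and 636. All 88, all 71 and 16 of the 17 genes above were among the 1679, in the direction of their net change. The treated difference shares its libraries with the net change, on which these genes were selected. The selection favours this overlap, so the overlap is no support for them.

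Libraries of cells floxed for Ctcf and Wapl entered neither side of the net change, but they counted in the filter and in the shared spread. They gave a further reading of the 184 genes, with 1 treated library of 1 clone. These cells too were exposed to Adeno-Cre, so their change includes any response to the virus and any effect of losing Wapl. It was taken against the mean of both untreated clones, so clone differences enter it. With the clone block the change of Ehd2 was -3.99, in place of -4.31. In differences from Ctcf(fl/fl) cells, Wapl loss, clone and set of libraries cannot be told apart. The spread for the change in doubly floxed cells was taken mostly from the other groups. In 16 genes the 3 libraries and the 8 were separated by more than 20-fold (Rps29 was at 613 to 770 RPKM against 0 to 0.909), so only changes within these cells were used. In these cells 1324 genes (10.5%) rose and 673 (5.34%) fell.

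Of the 71 genes that fell in Ctcf(fl/fl) cells, 65 fell and 0 rose in the doubly floxed cells, with a median change of -1.67. Ehd2 fell by 4.31, Krtcap2 by 3.43, Gaa by 2.91 and Adprhl2 by 2.63 there. Among those named, Clu (0.13), Tap2 (-0.04) and Them6 (-0.94) did not pass there (adjusted p = 0.837, 0.93 and 0.0571). The change of Clu differed between doubly and singly floxed cells by 2.03 (adjusted p = 0.0152). Of the 88 that rose, 52 rose and 2 fell, with a median of 0.72. Cldn3 rose by 4.06 and Mnd1 by 2.84. Ada was at 6.43 and 5.77 RPKM untreated and at 9.24 after Adeno-Cre in these cells (change 0.53, adjusted p = 0.538), 2.94 below its change in Ctcf(fl/fl) cells (adjusted p = 0.0334). Sncaip fell there by 1.33 (adjusted p = 0.000608), and the difference of -3.18 between both changes passed (adjusted p = 1.42e-05). The changes of Pip5k1b, Slc14a1, Gldc, Slain1 and Coro2b were also below those in Ctcf(fl/fl) cells, with differences of -2.16, -1.84, -1.64, -1.72 and -2.38, each past the threshold; over all genes, this signed difference was below 0 and past the threshold in 76 (0.603%).

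Of the 17 genes that rose in wild-type cells, 8 rose and 1 fell in the doubly floxed cells. Among the lists, 16 of 34 interferon effectors and 8 of 16 sensors rose there, with medians of 1.15 and 1.20. Irf7 rose by 3.20, Apol9a by 3.04, Ifit1 by 2.19 and Gbp3 by 2.06. Ifit1 was at 0.422 and 0.711 RPKM untreated in these cells, a level not comparable with those of the 8 libraries. Set against Ctcf(fl/fl) cells, the change of 6 effectors was higher, as a signed difference that over all genes passed above 0 in 98 (0.778%); it was 2.57 for Apol9a (adjusted p = 0.00626) and 2.50 for Gbp3 (adjusted p = 0.0197), and for Ifit1 and Irf7 it did not pass (3.13, adjusted p = 0.0681, and 2.98, adjusted p = 0.0594).

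**Figure D5:**
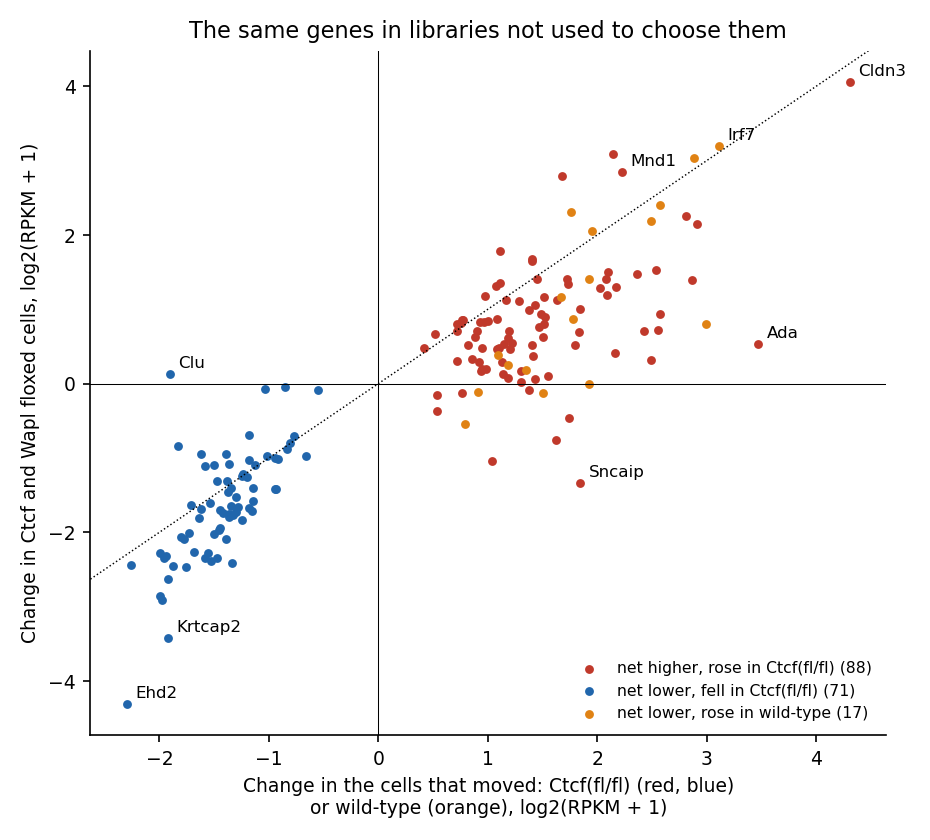
Each point is 1 of the genes past the net threshold, with the change in Ctcf(fl/fl) cells (red, blue) or wild-type cells (orange) on the horizontal axis and the change in cells floxed for Ctcf and Wapl on the vertical axis, in log2(RPKM + 1). Blue genes lie below 0 with 1 exception (Clu), red genes mostly above 0 with Ada and Sncaip off the line, and 8 of the 17 orange genes rose.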

How the data were processed

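RNA-seq values were deposited by the authors as RPKM for 23339 genes in 27 libraries of 12 groups. The build was mm9, per the submitters' processing notes; Bowtie 0.12.5, TopHat (1.3.1, 1.4.1), bedtools, HTSeq and MACS 1.4.2 are listed there without their roles. The use of strand in counting is not given in the sources used here, and reads of overlapping genes cannot be separated. Values of 18155 of 18155 genes were whole multiples of 1 read within 0.02 reads, which gave the depths; 1 RPKM of a gene of median length was 57.7 to 109 reads. Unused per-sample columns numbered 0.

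The 12604 genes that reached an RPKM of 1 in 2 or more libraries entered a limma fit (3.58.1, R 4.3.3; trend and robust empirical Bayes, two-sided) on log2(RPKM + 1), in 1 model of 12 groups with 15 residual degrees of freedom. Adjusted p-values are Benjamini-Hochberg over all genes tested, threshold 0.05. The script was tested on simulated data. Clones are named by the labels, so treated and untreated libraries are pairs; the deviations of a pair from the group means correlated at 0.68 (Ctcf) and 0.76 (wild-type), equal in both pairs by construction, and the block fit had 7 residual degrees of freedom. P-values of the main fit measure the spread between clones within a group and leave out the pairing. That spread was pooled over the 12 groups, so cells and treatments outside the comparison enter it. P-values of the block fit measure the spread of the paired changes between clones.

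Genes were named by rule: Ctcf, then the 15 highest and 15 lowest net changes among genes past the threshold with a group mean of at least 5 RPKM in which both Ctcf clones lay beyond both wild-type clones, then up to 4 members in each direction from each of 33 lists, or the 2 with the smallest p; predicted genes, small RNAs and antisense transcripts (15 of the 184) were counted only. Slc25a33, Trim62, Tacc1, Fat1, genes with a promoter match and members of lists outside the rule were named after their values were seen. The members and lists were chosen with earlier results of these data known. Gene names were matched to RefSeq (GRCm38.p6) for 12599 genes, used for names, neighbours and promoter windows only. Alternatives were other pseudocounts, filters, scaling, a length correction, the 8 libraries alone, the clone block and leaving out each library. The tables of the other assays were not used here.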

Additional observations from a re-analysis of the deposited data

Results flagged for a closer look

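The change after Adeno-Cre differed between Ctcf(fl/fl) and wild-type cells by the interaction term of the limma model (adjusted p under the threshold) in 184 genes, and between cells floxed for Ctcf and Wapl and Ctcf(fl/fl) cells in 174. Each value below is the net change, in log2(RPKM + 1), of a gene whose interaction passed.

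The targeted gene Ctcf stood at -1.28. Among interferon and antigen presentation genes, Ifit1 stood at -3.42, Zbp1 at -3.17, Irf7 at -2.90, H2-T23 at -2.46, Apol9a at -2.42, Gbp3 at -2.39, Ifi27l2b at -2.07, Ifi44 at -1.76, Irf9 at -1.68 and Tap2 at -1.22. Among the other lower genes, Krtcap2 stood at -2.47, Adprhl2 at -2.22, Adra1b at -2.15, Dhrs4 at -2.15, Mrps2 at -2.14, Ehd2 at -2.12, C1ra at -2.04, Them6 at -2.01, Ndufaf3 at -1.83, Pcdhb22 at -1.67, Hist1h4j at -1.63, Clu at -1.58, Sgce at -1.46, Pcdhga2 at -1.25 and C1rl at -1.19.

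On the higher side, Cldn3 stood at 3.55, Ada at 3.52, Slc14a1 at 2.98, Pip5k1b at 2.64, Bdh1 at 2.48, Bean1 at 2.48, Gldc at 2.36, Svip at 2.36, Slain1 at 2.31, Mnd1 at 2.25, Fam115c at 2.14, Coro2b at 2.01, Cd109 at 1.96, Asrgl1 at 1.96, Sncaip at 1.96 and Tnfaip6 at 1.78.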

How the results depend on the processing

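With 2 clones a group, the counts moved with the libraries and the fit. No gene of the 184 turned sign in any alternative fit that tested it. The selection on these same changes favours this, so it is no support for them. The clone block and the fit on the 8 libraries alone leave the estimates unchanged by construction. The net change count was 117 with a mean of at least 5 RPKM, 307 with no filter on low values, 22 on the 8 libraries alone and 876 with the replicate block, and 106 to 203 when 1 library was left out. The Ctcf change count was 634 at that mean, 633 on the 8 libraries, 3155 with the block and 380 to 947 with 1 library left out. The wild-type change count was 118 with the length trend removed, 713 unfiltered, 6 on the 8 libraries, 265 with a pseudocount of 0.1, 2899 with the block and 45 to 483 with 1 library left out. The untreated difference count was 3 with the length trend removed or at that mean, 16 after rescaling, 51 unfiltered, 0 by limma on the 8 libraries, 6 and 15 with pseudocounts of 0.1 and 0.5, and 7 to 32 with 1 library left out. The treated difference count was 1118 at that mean, 1018 on the 8 libraries and 548 to 1680 with 1 library left out. The net change of Ctcf on the 8 libraries was -1.28 (adjusted p = 0.0569). Fewer libraries leave fewer degrees of freedom, and a stricter filter tests fewer genes; for the rest the cause was not tested. Of the 184 genes, 78 passed in all 8 fits that left out 1 library. No paired fit was possible for the untreated and treated differences because clone lies within genotype. Low RPKM and unstated strand use limit single genes.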
